A study of Mus musculus with 18 samples.

Results

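MHC class I antigen presentation was followed through 10 genes, chosen by name from a table of 35275 genes: *H2-K1*, *H2-D1*, *B2m*, *Tap1*, *Tap2*, *Tapbp*, *Psmb8*, *Psmb9*, *Psmb10* and *Nlrc5*. All 10 were found, and all 10 had enough counts to be tested. They were read in 18 RNA-seq libraries from cell lines of murine malignant peripheral nerve sheath tumors (MPNSTs), 3 lines with *Nf1* and *p53* (*Trp53*) deleted (*Nf1*/*p53* dKO) and 3 with *Nf1* and *Cdkn2a* deleted (*Nf1*/*Cdkn2a* dKO), each line in 3 cultures. Loss of *Nf1* is thus shared by every line, and no normal cells stand beside them. The tumors were raised in wild-type mice by injecting the sciatic nerve with an adenovirus that carried Cas9 under the CMV promoter and guides against *Nf1* with either *p53* or both products of *Cdkn2a* (p16 and p19). Per the study's text, its lines for mechanistic work were from tumors of 129 Sv/Jae mice, while the labels give neither strain nor age. Each line came from a single tumor, was passaged many times before use, and was grown without drug or interferon in a medium with 10% serum. The 3 cultures of a line share that tumor, so the line was the unit of replication (n = 3 per genotype).

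Class I molecules show fragments of a cell's own proteins to CD8 T cells. The proteasome cuts the proteins, the TAP transporter carries the peptides into the endoplasmic reticulum, and tapasin and its partners load them onto a heavy chain paired with β2-microglobulin. Interferon exchanges the catalytic subunits of the proteasome for inducible ones and raises most genes of the pathway through factors that include IRF1 and the transactivator NLRC5, which is why tumor cells with little class I machinery can respond to the cytokine by showing more antigen.

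The pathway is partly a neighborhood of the genome. In GENCODE M21 (GRCm38), 7 of the 10 genes lie on chromosome 17, in the *H2* region, 2 on chromosome 8 and 1 on chromosome 2. *Psmb9* (chr17:34181987-34187764, minus strand), *Tap1* (chr17:34187553-34197225, plus), *Psmb8* (chr17:34197721-34201454, plus) and *Tap2* (chr17:34203527-34216321, plus) follow each other, and *Psmb9* and *Tap1* are read from one short stretch in opposite directions. The RefSeq starts of the pair are 226 bases apart, and their promoter windows (250 bases before to 50 bases after the start) share 275 bases.

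Promoter windows from RefSeq (GRCm38.p6) were at hand for 8 of the 10 genes, and were searched on both strands for 3 motifs linked to the pathway. These were the ISRE core bound by IRF factors (GAAANNGAAA), the interferon-γ-activated GAS element (TTCNNNGAA) and a κB site (GGGNNTTCC). No match of one motif overlapped that of another. A promoter is shown here where a match was found, since both heavy chain genes shared theirs. *H2-K1* and *H2-D1* held the same κB match inside a stretch of 47 identical bases, and *B2m* held an ISRE match. *Psmb8* held a GAS match, as did *Irf1*, the IRF factor measured further on. Over 32817 windows of this length, 3.43% held the ISRE core, 8.29% the GAS element and 5.82% the κB letters. The windows of *Tap1*, *Tapbp*, *Psmb9* and *Psmb10* held none of the 3, which says only that these letters are not there. The same limit holds for *H2-K1*, *H2-D1*, *B2m*, *Psmb8* and *Irf1* and the motifs not matched there. Variants of the letters were not searched. A match is a description of the sequence and was not tested for use. In GENCODE M21, *H2-D1* begins at 35262730 and *Psmb8* at 34197721, so their RefSeq windows, matches included, lie inside the annotated gene. The windows of *Tapbp* and *Psmb9* do so too. The sequences run 5′ to 3′ on the strand of the gene, with the match in capitals. They are 250 bases before the start for *H2-K1* (chr17:34000348-34000597, minus), *B2m* (chr2:122147437-122147686, plus) and *Irf1* (chr11:53769764-53770013, plus).
H2-K1: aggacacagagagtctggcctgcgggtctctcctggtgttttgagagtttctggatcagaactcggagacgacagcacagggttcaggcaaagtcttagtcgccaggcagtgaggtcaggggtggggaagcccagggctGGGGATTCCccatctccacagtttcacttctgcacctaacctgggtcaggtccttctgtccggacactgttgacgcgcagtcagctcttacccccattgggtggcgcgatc
B2m: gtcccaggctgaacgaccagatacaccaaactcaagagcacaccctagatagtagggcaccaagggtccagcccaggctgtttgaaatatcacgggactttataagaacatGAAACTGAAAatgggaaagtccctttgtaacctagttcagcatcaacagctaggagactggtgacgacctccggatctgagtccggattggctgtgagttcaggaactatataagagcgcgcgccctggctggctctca
Irf1: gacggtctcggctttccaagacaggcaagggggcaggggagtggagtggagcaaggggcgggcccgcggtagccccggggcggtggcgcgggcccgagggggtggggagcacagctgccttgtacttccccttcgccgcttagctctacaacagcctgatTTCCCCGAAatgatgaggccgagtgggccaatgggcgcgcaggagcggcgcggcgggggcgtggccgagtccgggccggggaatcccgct
Around the matches of *H2-D1* (chr17:35262913-35262942, plus) and *Psmb8* (chr17:34198088-34198117, plus) 30 bases are given, beside the same 30 of *H2-K1* (chr17:34000439-34000468, minus).
H2-K1 match: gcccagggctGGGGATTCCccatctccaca
H2-D1 match: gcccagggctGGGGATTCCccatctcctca
Psmb8 match: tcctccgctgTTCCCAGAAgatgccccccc

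**Figure D1:**
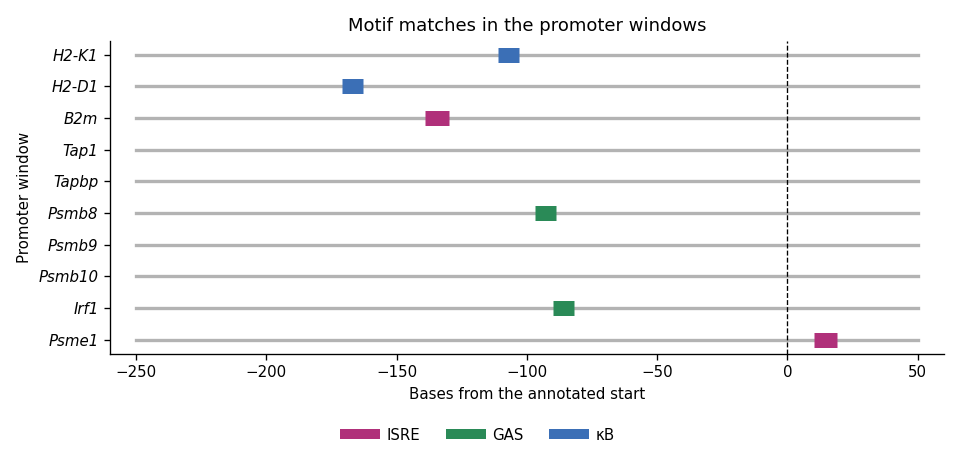
Motif matches in promoter windows, with the position in bases from the RefSeq start on the x axis, the genes on the y axis, and colors for the ISRE core, the GAS element and the κB site. The first RefSeq window of each gene is drawn. *H2-K1* and *H2-D1* carry the κB letters, *B2m* and *Psme1* the ISRE core, *Psmb8* and *Irf1* the GAS element, and the other 4 windows no match.

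The libraries held 19560535 to 28312207 counts and the line sums 65206479 to 73065228. Cultures of a line were more unlike than counting error alone allows in all 18 pairs. Of the targeted genes, *Trp53* was at 58.7 to 94.1 CPM (counts per 1000000, with TMM-scaled library sizes) in *Nf1*/*p53* dKO lines and at 185 to 247 CPM in *Nf1*/*Cdkn2a* dKO lines. *Nf1* (27.7 to 70.0 against 12.7 to 38.3 CPM) and *Cdkn2a* (42.9 to 363 against 169 to 392 CPM) overlapped, and gene counts do not read the guides' target sites. The labels call the cells mesenchymal, and 8 mesenchymal markers summed to 8830 to 23500 CPM, among them *Vim* at 4727 to 10210 CPM. The 8 Schwann cell markers summed to 3.57 to 74.8 against 1.48 to 3.05 CPM. *Sox10* was at or under 0.099 CPM in every line, but *Ngfr* reached 64.3 and *Mbp* 6.38 CPM in *Nf1*/*p53* line 2. *Foxd3* was at 5.45 CPM in *Nf1*/*p53* line 1. The 6 tested Schwann cell markers all had a lower fitted level in the *Nf1*/*Cdkn2a* dKO (median log2 fold change −3.26). None was called by edgeR, and the lines overlapped in each. The 5 endothelial markers summed to 1.29 to 2.02 against 0.641 to 1.93 CPM. Of these, *Tek* was called, at 0.412 to 1.08 against 0.0642 to 0.0782 CPM (log2 fold change −3.23, edgeR adjusted p = 0.0465), and *Cdh5* had 1.61 (adjusted p = 0.221). The 4 epithelial markers summed to 2.67 to 739 against 8.26 to 611 CPM. Of the leukocyte markers, which matter here because leukocytes are rich in class I genes and the inducible proteasome, *Ptprc* was at 0.144 to 0.563 CPM, *Itgam* at or under 0.115 and *Tyrobp* at or under 0.016 CPM. The highest of the list were *Cd68*, at 1.97 to 4.38 against 4.33 to 7.14 CPM, and *Csf1r*, at 1.48 to 3.17 against 0.721 to 2.93 CPM. The 11 leukocyte markers found summed to 3.99 to 8.53 CPM in *Nf1*/*p53* dKO lines and to 6.96 to 8.80 CPM in *Nf1*/*Cdkn2a* dKO lines, and were lowest in *Nf1*/*p53* line 3. In bulk libraries, fewer cells that express a gene and less RNA per cell cannot be told apart.

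The comparison asks how far the class I machinery differs between the genotypes. None of the 10 genes passed an adjusted p of 0.05 on the 6 lines (edgeR's quasi-likelihood test, Benjamini-Hochberg over 15207 genes), where 1.80% of all tested genes did. At an unadjusted p under 0.05 there were 4, *Psmb8*, *Psmb9*, *Psmb10* and *Tap2*, all lower in the *Nf1*/*Cdkn2a* dKO. Over all tested genes 22.4% had such a p, 12.5% in that direction. In 3 genes, the inducible proteasome subunits *Psmb8*, *Psmb9* and *Psmb10*, every *Nf1*/*Cdkn2a* dKO line lay below every *Nf1*/*p53* dKO line. Lines did not overlap in 31.4% of all tested genes, and in 16.6% the *Nf1*/*Cdkn2a* dKO lines were all lower. Of the 10 fitted log2 fold changes (*Nf1*/*Cdkn2a* dKO minus *Nf1*/*p53* dKO throughout), 6 were negative and 4 positive, with a median of −0.59 against −0.023 over all tested genes. With raw totals in place of TMM the median over all genes moved to −0.158 and that of the 10 genes to −0.74.

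Other tests called some of these genes. DESeq2 on the same 6 lines called 3, *Psmb8*, *Psmb9* and *Psmb10*, with 14.3% of all genes called. The limma-voom model of the 18 cultures, in which lines were a random term, called *Tapbp*, *Psmb8* and *Psmb10*, with 16.6% of all genes called. With the 18 cultures entered as if they were separate samples, DESeq2 called 6 and edgeR 5, where 48.9% and 46.5% of all genes were called. Whether a gene of the inducible proteasome passes thus depended on the test, while its direction did not.

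**Figure D2:**
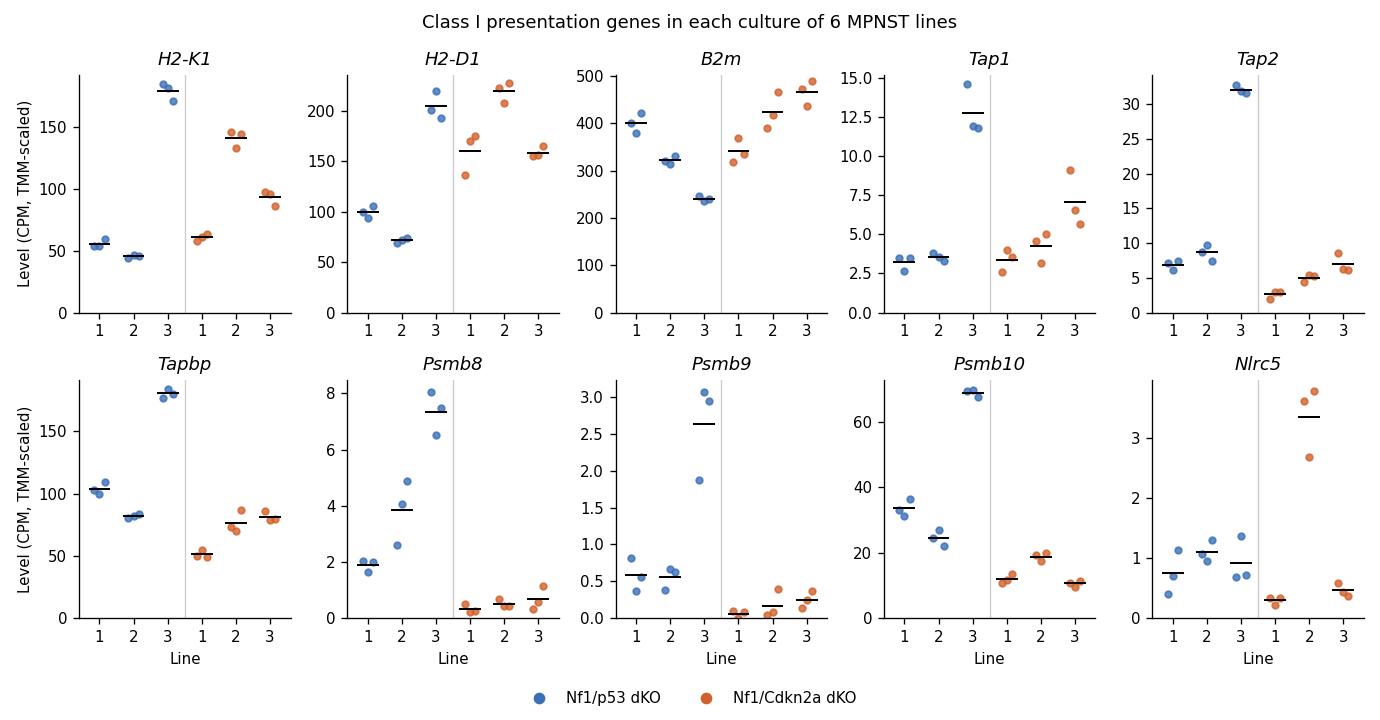
Level of each class I presentation gene in CPM (linear axes from 0), with 1 point per culture, a bar for the mean of the 3 cultures of a line, and *Nf1*/*p53* dKO lines 1 to 3 left of *Nf1*/*Cdkn2a* dKO lines 1 to 3 in each panel. The 3 *Psmb* genes sit lower in every *Nf1*/*Cdkn2a* dKO line, and *Nf1*/*p53* line 3 stands above the other lines in 7 of the 10 panels.

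Among the molecules that show the peptide, the heavy chains did not separate the genotypes. *H2-K1* (chr17:33996017-34000347, minus strand), the K heavy chain, was at 55.4, 45.1 and 179 CPM in *Nf1*/*p53* dKO lines 1 to 3 and at 61.0, 141 and 94.1 CPM in *Nf1*/*Cdkn2a* dKO lines 1 to 3. Its highest and its lowest line are both *Nf1*/*p53* dKO lines, and the means were 93.1 ± 74.5 and 98.7 ± 40.2 CPM (SD, n = 3 lines each). The log2 fold change was 0.08 (standard error 0.58, 95% interval −1.3 to 1.47, adjusted p = 0.946), a range that still allows more than a doubling either way, and it turned to −0.06 with raw totals.

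*H2-D1* (chr17:35262730-35267499, plus strand), the D heavy chain, was at 98.9, 71.1 and 205 CPM in *Nf1*/*p53* dKO lines and at 161, 220 and 160 CPM in *Nf1*/*Cdkn2a* dKO lines. Again line 3 was the high one of the *Nf1*/*p53* dKO, and only this line reached the levels of the other genotype. Its log2 fold change was 0.53 (standard error 0.39, adjusted p = 0.469).

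*Nf1*/*p53* line 3 set both heavy chain values. Without it, both *H2-K1* and *H2-D1* were lower in the 2 remaining *Nf1*/*p53* dKO lines than in any *Nf1*/*Cdkn2a* dKO line, with log2 fold changes of 0.98 (adjusted p = 0.207) and 1.09 (adjusted p = 0.0938). With that line left out, 43.1% of all tested genes had lines that did not overlap. Reads of near-identical class I genes can be split in counting. Of the 100-base windows in the transcripts of *H2-D1*, 3.59% also occur in other genes (9 of them), and 0.957% for *H2-K1* (3 genes). The counts of *H2-K1*, *H2-D1* and the other *H2* class I genes summed, which a split among them does not alter, was 223, 182 and 505 CPM against 248, 398 and 310 CPM, a log2 fold change of 0.07.

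*B2m* (chr2:122147686-122153083, plus strand) encodes β2-microglobulin, the light chain that every class I heavy chain needs. It was at 396, 319 and 241 CPM in *Nf1*/*p53* dKO lines and at 341, 423 and 470 CPM in *Nf1*/*Cdkn2a* dKO lines. *Nf1*/*p53* line 3, the highest of its genotype for both heavy chains, was the lowest of all 6 lines here. Between genotypes the log2 fold change was 0.37 (standard error 0.23, 95% interval −0.17 to 0.91, adjusted p = 0.38). Per length of merged exons the ratio of *B2m* to the sum of *H2-K1* and *H2-D1* was 8.05, 8.64 and 2.00 in *Nf1*/*p53* dKO lines and 4.76, 3.69 and 5.81 in the *Nf1*/*Cdkn2a* dKO lines. The widest spread of this ratio was thus between lines of 1 genotype.

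The peptide transporter is built from TAP1 and TAP2. *Tap1* was at 3.13, 3.52 and 12.8 CPM in *Nf1*/*p53* dKO lines and at 3.39, 4.26 and 7.18 CPM in *Nf1*/*Cdkn2a* dKO lines. The other 5 lines lay from 3.13 to 7.18 CPM, below *Nf1*/*p53* line 3, and the log2 fold change of −0.39 (SE 0.63, edgeR adjusted p = 0.749) turned to 0.57 without that line.

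*Tap2* was at 6.79, 8.63 and 32.1 CPM against 2.63, 5.03 and 7.10 CPM. *Nf1*/*p53* line 3 was 4.72-fold above the lowest line of its genotype, and the highest *Nf1*/*Cdkn2a* dKO line just exceeded *Nf1*/*p53* line 1. The log2 fold change was −1.69 (standard error 0.69, unadjusted p = 0.0466, adjusted p = 0.216 from edgeR), and −0.64 without *Nf1*/*p53* line 3. The counts of *Tap2* are uncertain where its exons overlap *Gm15821* and *Gm20496* on the opposite strand, because no source says that strand was used in counting.

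*Tapbp* (chr17:33915899-33929292, plus strand) encodes tapasin, which holds the empty heavy chain at the transporter. It was at 103, 81.5 and 180 CPM in *Nf1*/*p53* dKO lines and at 51.3, 76.4 and 82.3 CPM in *Nf1*/*Cdkn2a* dKO lines. The genotypes overlapped through *Nf1*/*p53* line 2 and *Nf1*/*Cdkn2a* line 3 alone, and with DESeq2's size factors they did not. Its log2 fold change was −0.80 (standard error 0.33, adjusted p = 0.226), and −0.39 without *Nf1*/*p53* line 3. Its exons overlap *Zbtb22* on the same strand and *Gm19412* on the other.

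Among the inducible proteasome subunits, *Psmb8* and *Psmb9* had the widest differences of the 10 genes. *Psmb8* encodes β5i (LMP7), which takes the place of the chymotrypsin-like subunit PSMB5. It was at 1.86, 3.81 and 7.33 CPM in *Nf1*/*p53* dKO lines and at 0.321, 0.534 and 0.688 CPM in *Nf1*/*Cdkn2a* dKO lines, from 45 to 190 counts per culture in the former and 4 to 25 in the latter. No culture of one genotype reached the other. The exons of *Psmb8* overlap *Gm20496* on the opposite strand. Between genotypes the log2 fold change was −3.07 (standard error 0.62, 95% interval −4.55 to −1.59), an 8.39-fold lower fitted level, with an unadjusted p of 0.00194 and an adjusted p of 0.0602 from edgeR. With 1 line left out at a time it ran from −3.43 to −2.45, and over the 18 fits made its adjusted p ran from 4.59e-14 (DESeq2 on 18 cultures) to 0.178.

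*Psmb9* encodes β1i (LMP2), the counterpart of PSMB6. It was the gene with the fewest reads. It was at 0.554, 0.552 and 2.64 CPM (43, 39 and 191 counts per line) in *Nf1*/*p53* dKO lines and at 0.0642, 0.159 and 0.250 CPM (4, 11 and 16 counts) in the *Nf1*/*Cdkn2a* dKO lines. The lines did not overlap, but single cultures did, with the lowest *Nf1*/*p53* dKO culture at 0.366 CPM and the highest *Nf1*/*Cdkn2a* dKO culture at 0.392 CPM. The log2 fold change was −2.97 (standard error 0.87, unadjusted p = 0.0122, adjusted p = 0.117 from edgeR), and −1.79 without *Nf1*/*p53* line 3. Its exons overlap *Tap1* on the opposite strand, so without strand information some of its counts could belong to *Tap1*, and the reverse.

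*Psmb10* (chr8:105935735-105938444, minus strand) encodes β2i (MECL-1), the counterpart of PSMB7, and was the most abundant of the 3 inducible subunits. It was at 33.2, 24.3 and 68.8 CPM in *Nf1*/*p53* dKO lines and at 12.2, 18.8 and 10.7 CPM in *Nf1*/*Cdkn2a* dKO lines. Every culture of the *Nf1*/*Cdkn2a* dKO (9.68 to 19.8 CPM) was below every culture of the *Nf1*/*p53* dKO (22.2 to 69.6 CPM). Its log2 fold change was −1.60 (standard error 0.43, 95% interval −2.64 to −0.56, unadjusted p = 0.0088, adjusted p = 0.103 from edgeR), and −1.04 without *Nf1*/*p53* line 3. It has no exon in common with another gene, and it lies outside the *H2* region.

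**Figure D3:**
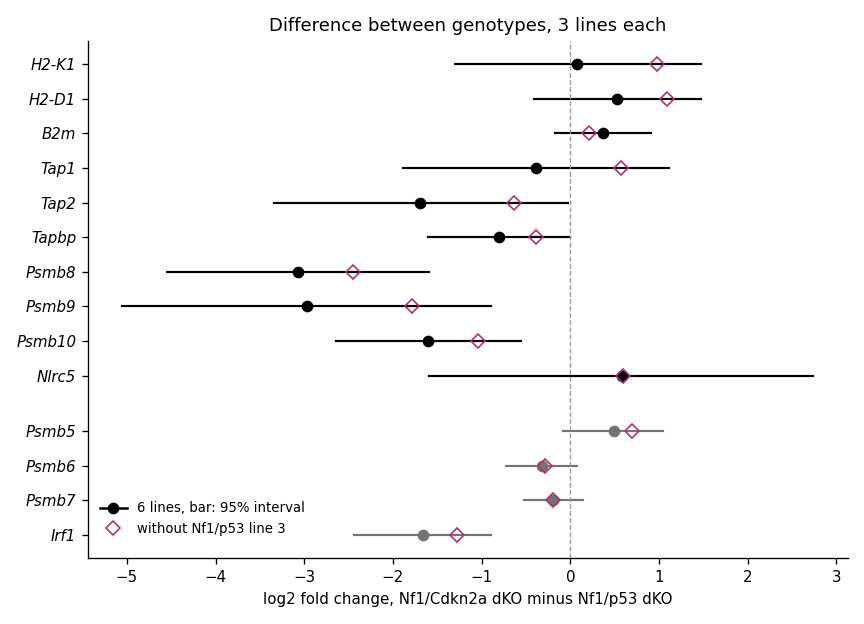
Fitted log2 fold changes between genotypes with 95% intervals (edgeR, 6 lines) for the class I presentation genes in black and 4 related genes in gray, and the values without *Nf1*/*p53* line 3 as open diamonds. Without that line most values shift to the right, among them *Psmb9* from −2.97 to −1.79 and *Tap2* from −1.69 to −0.64, while *B2m* shifts to the left. The fitted values of *Tap2*, *Tapbp*, *Psmb8*, *Psmb9*, *Psmb10*, *Psmb6*, *Psmb7* and *Irf1* lie below 0 with and without it. *H2-K1*, *H2-D1* and *Tap1* reach 0.98, 1.09 and 0.57.

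The constitutive counterparts differed less and not in one direction. *Psmb5* was at 49.9, 78.2 and 94.1 CPM against 105, 108 and 98.9 CPM (log2 fold change 0.49, adjusted p = 0.28), *Psmb6* at 180, 135 and 170 CPM against 130, 145 and 114 CPM (−0.32, adjusted p = 0.308) and *Psmb7* at 216, 205 and 203 CPM against 186, 202 and 160 CPM (−0.19, adjusted p = 0.466). Lines did not overlap for *Psmb5*, higher in the *Nf1*/*Cdkn2a* dKO, and for *Psmb7*, lower there. The 11 other subunits of the 20S core had a median log2 fold change of 0.05, none called, from *Psmb4* (−0.62, adjusted p = 0.092) to *Psma3* (0.30).

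Ratios within a line, which do not depend on the scaling between libraries, were formed per length of merged exons after the levels had been seen. That length spans the exons of all annotated transcripts, 3381 bases for *Psmb8* and 3660 for *Psmb9*. Which transcripts were expressed was not tested. In the *Nf1*/*p53* dKO, *Psmb8* had a mean of 4.33 CPM or 1.28 CPM per kb, and *Psmb5* 74.1 CPM or 82.4 CPM per kb. The percentages therefore depend on the lengths, while in the ratio of 1 gene to another the lengths cancel between genotypes. *Psmb8* was 0.99, 1.29 and 2.07% of *Psmb5* in *Nf1*/*p53* dKO lines and 0.0814, 0.132 and 0.185% in the *Nf1*/*Cdkn2a* dKO lines. *Psmb9* was 0.157, 0.209 and 0.794% of *Psmb6* against 0.0253, 0.0561 and 0.112%. *Psmb10* was 30.8, 23.8 and 67.9% of *Psmb7* against 13.1, 18.7 and 13.5%. In all 3 pairs every *Nf1*/*Cdkn2a* dKO line had the lower ratio. The 3 inducible subunits together were 9.38, 7.10 and 17.0% of the 3 constitutive ones against 3.02, 4.39 and 3.02%, a difference of −1.61 on the log2 scale. The exact two-sided permutation test of 3 lines against 3 gave p = 0.1 for each, the smallest it can give, and 0.133 after adjustment over 8 ratios.

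*Tap2* stood at 3.14, 3.55 and 3.64 times *Tap1* per length in *Nf1*/*p53* dKO lines and at 1.13, 1.71 and 1.43 times in the *Nf1*/*Cdkn2a* dKO lines (log2 difference −1.29, exact permutation p = 0.1, adjusted p = 0.133 over 8 ratios). The genotypes did not overlap. With 3 lines per genotype the permutation test cannot give a p under 0.1, so no ratio could have passed it. *Nf1*/*p53* line 3, which was high in both genes, had nearly the same ratio as lines 1 and 2. *Tap1*, whose promoter window overlaps that of *Psmb9*, was 3.78, 4.27 and 3.23 times that gene per length in *Nf1*/*p53* dKO lines and 35.3, 17.9 and 19.2 times in the *Nf1*/*Cdkn2a* dKO lines (log2 difference 2.62, exact permutation p = 0.1, adjusted p = 0.133). In the *Nf1*/*Cdkn2a* dKO lines this ratio of *Tap1* to *Psmb9* rests on 4, 11 and 16 counts of *Psmb9*. With 1 count added in each culture the log2 difference was 2.36. The exons of these genes overlap, and the use of strand in counting is not known. The ratio of *H2-D1* to *H2-K1* overlapped between genotypes (exact permutation p = 0.5).

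**Figure D4:**
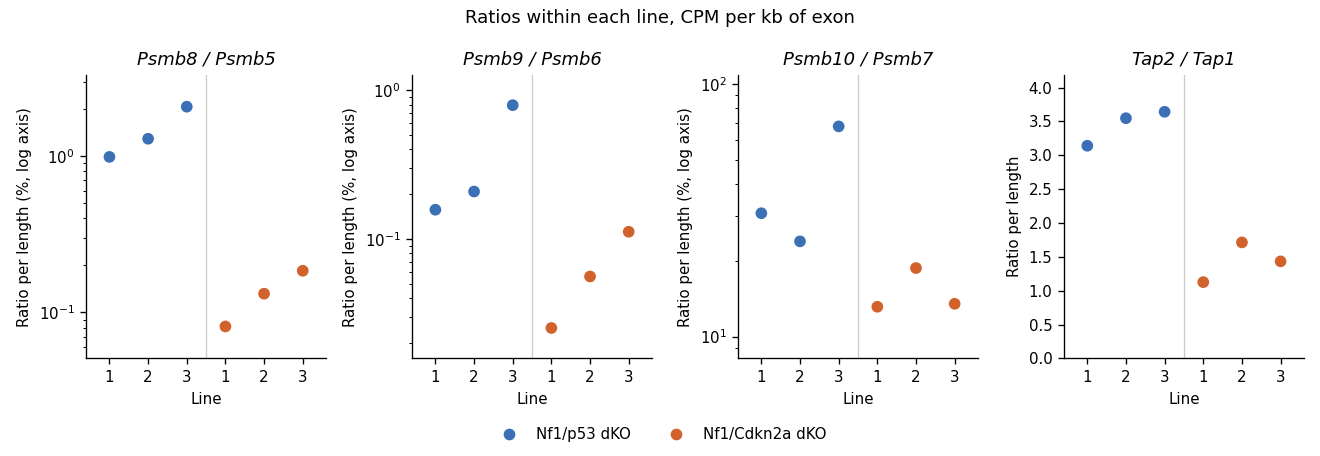
Ratios of paired genes within each line, from CPM per kb of merged exon, in percent on log axes for the 3 proteasome pairs and as a plain ratio on a linear axis from 0 for *Tap2* to *Tap1*. Each point is 1 line. In every panel the 3 *Nf1*/*Cdkn2a* dKO points lie below the 3 *Nf1*/*p53* dKO points.

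*Nlrc5* (chr8:94434356-94527272, plus strand), the transactivator of the class I genes, was at or under 1.09 CPM in 5 of the 6 lines. It was at 0.748, 1.09 and 0.927 CPM in *Nf1*/*p53* dKO lines and at 0.305, 3.35 and 0.469 CPM in *Nf1*/*Cdkn2a* dKO lines. *Nf1*/*Cdkn2a* line 2 alone was high, in each of its cultures (2.67 to 3.77 CPM), while lines 1 and 3 lay below every *Nf1*/*p53* dKO line. The fitted change of 0.58 on the log2 scale (SE 0.91, edgeR adjusted p = 0.742) turned to −1.24 without line 2 (unadjusted p = 0.0514, adjusted p = 0.298 from edgeR). The line with the highest *Nlrc5* was also the highest for *H2-D1* and second for *H2-K1*, but not for any inducible proteasome subunit. *9330175E14Rik* overlaps the exons of *Nlrc5* on the opposite strand.

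Set in order of the level per kb of merged exon, the genes ranged from *B2m* to *Psmb9* and *Nlrc5*. The order depends on these lengths, which span all annotated transcripts of a gene and not those expressed. In the *Nf1*/*p53* dKO *B2m* came first with 370 ± 90.2 CPM per kb (SD, n = 3 lines), apart from the next. *H2-D1* (48.5 ± 27.4), *Tapbp* (33.5 ± 14.4), *H2-K1* (31.7 ± 25.3) and *Psmb10* (24.7 ± 13.8) followed, each overlapping its neighbor over the lines. *Tap2* (4.19 ± 3.73), *Psmb8* (1.28 ± 0.821), *Tap1* (1.18 ± 0.995) and *Psmb9* (0.341 ± 0.33) also overlapped from one to the next, and *Nlrc5* was last with 0.108 ± 0.0201. In the *Nf1*/*Cdkn2a* dKO the order began with *B2m* (478 ± 76.1), *H2-D1* (70.0 ± 13.2), *H2-K1* (33.6 ± 13.7), *Tapbp* (19.3 ± 4.53) and *Psmb10* (8.16 ± 2.53), and only *H2-K1* and *Tapbp* of these overlapped. *Tap2* (1.3 ± 0.592) and *Tap1* (0.902 ± 0.363) overlapped, as did *Nlrc5* (0.162 ± 0.201) and *Psmb8* (0.152 ± 0.0545), and *Psmb9* was last with 0.0431 ± 0.0254. *Psmb8* stood beside *Tap1* in the *Nf1*/*p53* dKO and below it, without overlap, in the *Nf1*/*Cdkn2a* dKO.

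Most of the variation lay between lines and not between cultures. Within a genotype, 69.0 to 99.3% of the variance in log2 CPM was between lines for the 9 genes with enough counts in single cultures, and the median over all such genes was 80.4%. By genotype there were 2 exceptions, *Nlrc5* in the *Nf1*/*p53* dKO with 4.28% between lines and *Psmb8* in the *Nf1*/*Cdkn2a* dKO with 17.0%. *Nf1*/*p53* line 3 was the highest of the 6 lines for 7 of the 10 genes and of the 3 *Nf1*/*p53* dKO lines for 8. Over all tested genes it was the highest of 6 in 25.9% and of its 3 in 38.2%. *Nf1*/*Cdkn2a* line 1 was the lowest of 6 for 5 genes. How often it was the lowest over all tested genes was not counted, but it was the highest in only 9.23% of them. The mean of the 10 genes, each centred over the lines, was 1.24 in *Nf1*/*p53* line 3 and −0.96 in *Nf1*/*Cdkn2a* line 1 on the log2 scale, and between −0.23 and −0.01 in the other 4 lines.

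**Figure D5:**
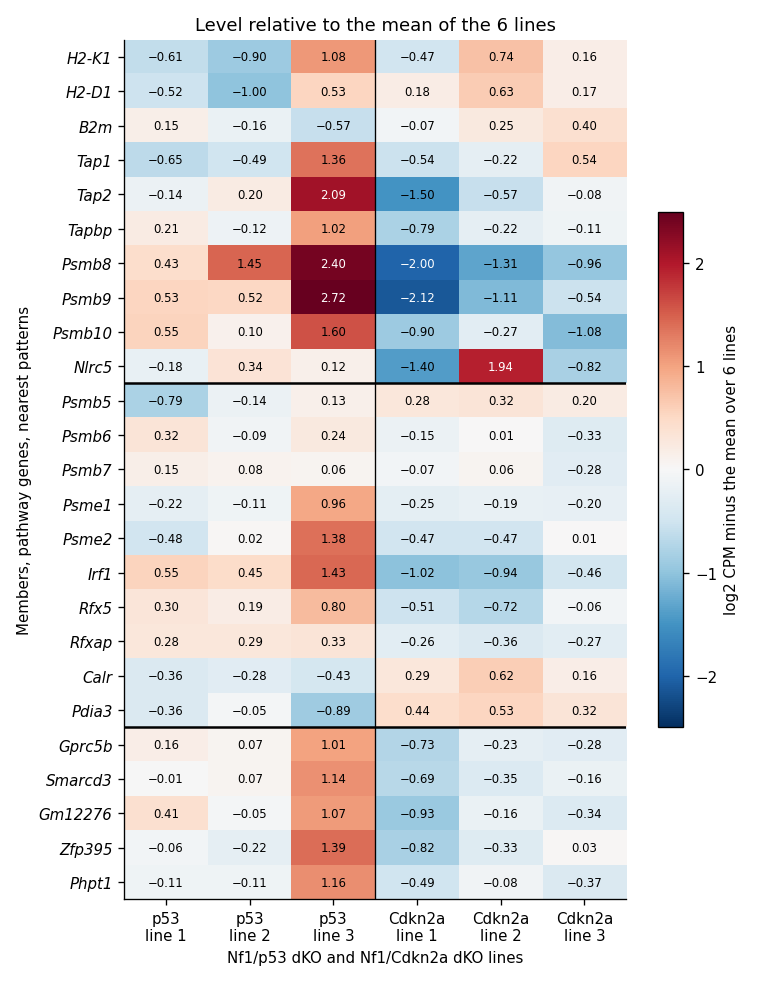
Log2 CPM of each gene minus its mean over the 6 lines, from blue (below) to red (above), for the 10 class I presentation genes, 10 other genes of the pathway and the 5 genes with the most similar pattern, separated by black lines. *Nf1*/*p53* line 3 is red for most of the class I genes but blue for *B2m*, *Calr* and *Pdia3*, and *Psmb8* and *Psmb9* run from 2.40 and 2.72 there to −2.0 and −2.12 in *Nf1*/*Cdkn2a* line 1.

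The rest of the pathway was read from 9 lists with 92 genes, of which 66 were tested. None was called by edgeR on the 6 lines, and 17 had an unadjusted p under 0.05, with 12 negative and 5 positive fold changes. These 17 are 25.8% of the tested pathway genes, beside 22.4% of all genes. DESeq2 on the 6 lines called 11 (16.7%, beside 14.3% of all genes) and limma-voom 10 of 63 (15.9%, beside 16.6%). These shares were near those of all genes, and the counts by list below are to be read against them. The median log2 fold change was −0.01.

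Of the other class I and class I-like molecules, 13 of the 22 found were tested, with a median of −0.81, 10 of them lower, and 4 with an unadjusted p under 0.05, all lower. *H2-T10* had the lowest value (−3.29, adjusted p = 0.165) and *Mr1*, which presents vitamin metabolites, the highest (0.90, adjusted p = 0.316). *H2-T10* was at 0.877, 2.815 and 12.6 CPM against 0.128, 0.548 and 0.985 CPM, with overlap. It had 0 to 24 counts per *Nf1*/*Cdkn2a* dKO culture, and its value ran from −3.99 to −1.73 with a line left out. *H2-T24* was at 2.31, 0.891 and 2.66 CPM against 0.433, 0.202 and 0.360 CPM (−2.55, adjusted p = 0.0715), without overlap. The nonclassical genes share sequence with each other, so their counts are uncertain.

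Of 10 loading, trimming and folding factors, 8 had a positive fold change, the median was 0.43, and 5 had an unadjusted p under 0.05, 4 of them positive (*Calr*, *Pdia3*, *Hspa5* and *Pdia6*) and 1 negative (*Erap1*). *Erap1*, which trims peptides for class I, was at 28.1, 25.5 and 31.2 CPM against 18.4, 20.8 and 19.8 CPM (−0.52, adjusted p = 0.125), without overlap. *Calr*, the chaperone calreticulin of the loading complex, was at 1259, 1332 and 1195 CPM against 1969, 2471 and 1807 CPM (0.72, adjusted p = 0.0787). *Pdia3*, which is bound to tapasin in that complex, was at 806, 997 and 558 CPM against 1398, 1489 and 1290 CPM (0.82, adjusted p = 0.109). Both, like *Hspa5* and *Pdia6*, are also general folding factors. *Pdia6* had the highest value (1.04, adjusted p = 0.164) and *Tapbpl*, the tapasin-related editor, the lowest (−0.55, adjusted p = 0.482).

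Of the PA28 activator, *Psme1* was at 34.5, 37.2 and 78.4 CPM against 33.7, 35.1 and 35.0 CPM, and *Psme2* at 38.1, 53.9 and 139 CPM against 38.5, 38.5 and 53.5 CPM. Both were high in *Nf1*/*p53* line 3 alone. *Psme2* had the lowest value of this list of 4 (−0.82, adjusted p = 0.358), and reached −0.08 with a line left out. The assembly factor *Pomp* had the highest (0.06).

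Of the interferon pathway's receptors, kinases and factors, 14 were tested with a median of 0.08. *Irf1*, an interferon-induced factor that binds the ISRE, was at 32.03, 29.9 and 58.9 CPM against 10.8, 11.4 and 15.9 CPM, with no overlap. Its log2 fold change was −1.66 (standard error 0.32, adjusted p = 0.0554), from −1.86 to −1.28 with a line left out. It was past the threshold with raw totals, with no filter, and with DESeq2 and limma-voom. *Jak2*, a kinase of the interferon-γ receptor, had the highest value (1.13, adjusted p = 0.0796), at 69.5, 68.8 and 55.2 CPM against 136, 96.1 and 191 CPM. The interferon ligands were absent or nearly so, with 8 genes listed, none tested, and at most 0.0938 CPM in any line.

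Of the factors that bind the SXY module of class I promoters, through which NLRC5 acts, 8 were tested with a median of −0.35. In 5 of them every *Nf1*/*Cdkn2a* dKO line was lower, as in 16.6% of all tested genes. *Rfx5* had the lowest value, at 10.8, 9.94 and 15.3 CPM against 6.11, 5.28 and 8.40 CPM (−0.86, adjusted p = 0.157), and *Nfyb* the highest (0.27, adjusted p = 0.55). *Rfxap*, a partner of RFX5, was at 18.6, 18.8 and 19.3 CPM against 12.8, 11.9 and 12.7 CPM (−0.60, adjusted p = 0.107). Of 10 class II presentation genes, which the same module serves, 3 were tested. The other 7, with *Ciita*, *H2-Aa* and *H2-Ab1* among them, were at or under 0.311 CPM in every line. *H2-DMb1*, of the peptide editor of class II, was at 1.87, 5.98 and 0.387 CPM against 0.193, 0.822 and 0.375 CPM (−2.56, adjusted p = 0.212), the lowest value. Its partner *H2-DMa* was at 2.77, 2.62 and 1.44 CPM against 2.31, 4.05 and 2.61 CPM (0.39, adjusted p = 0.599), the highest.

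Outside the pathway, the genes whose centred log2 CPM over the 6 lines came closest to the mean of the class I genes were *Gprc5b*, *Smarcd3*, *Gm12276*, *Zfp395* and *Phpt1*, with root mean square differences of 0.178 to 0.21 on the log2 scale. With 6 lines such a match is a description of the pattern. *Gprc5b*, an orphan receptor, was at 54.3, 50.9 and 97.8 CPM against 29.2, 41.4 and 40.0 CPM, and *Smarcd3*, a subunit of a chromatin remodeling complex, at 6.32, 6.68 and 14.1 CPM against 3.95, 4.99 and 5.68 CPM. Both have their highest value in *Nf1*/*p53* line 3 and their lowest in *Nf1*/*Cdkn2a* line 1, as the class I mean does. They were picked for this likeness, so it is no separate result.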

How the data were processed

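RNA from 18 cultures of 6 lines was purified and sequenced from libraries that a company made. The labels give a clean-up kit for every sample and the study's methods only for samples of low purity, so which samples went through it is open. The authors deposited raw counts (reads per gene, not normalized). The labels' processing notes name CASAVA, STAR 2.5, DESeq2 1.14.1 and GRCm38 (mm10). The counting tool, the annotation and the use of strand are not given in the sources used here. The labels state the treatment as none. The study's text gives 2 biological replicates in one place and 3 lines in triplicate in another, and the latter, which the labels follow, was used.

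For each line the counts of its 3 cultures were added, filtered with filterByExpr (minimum count 10, minimum total 15), scaled by TMM (factors 0.941 to 1.06) and compared by edgeR's two-sided quasi-likelihood test with Benjamini-Hochberg adjustment over all genes tested (edgeR 4.0.16, limma 3.58.1, DESeq2 1.42.0, R 4.3.3). A gene was called at an adjusted p under 0.05. Standard errors come from the F statistic. Log2 CPM used a prior count of 2. Levels were compared between genes only per kb of merged exons of GENCODE M21, which holds 34490 of the 35275 identifiers. Single values were compared by exact permutation. The steps were tested on simulated counts. The line is the replicate, and the spread between lines includes tumor and culture history. Depth limits *Psmb9*, *Nlrc5* and *Psmb8* most. Plots and tables used Python 3.11.15, numpy 2.4.6, pandas 2.3.3 and matplotlib 3.10.9.

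The 10 genes, the 9 pathway lists and the 5 marker lists were chosen with earlier results of these data known. Named are all 10 genes, the highest and lowest tested gene of each list, the constitutive subunits, *Irf1*, the targeted genes and the 5 genes of closest pattern. *Calr*, *Pdia3*, *Hspa5*, *Erap1*, *Rfxap*, *Psme1*, *H2-T24*, *Ciita*, *H2-Aa* and *H2-Ab1* and the single markers were chosen after their values were seen, as were the 8 ratios. Tried as alternatives were edgeR and DESeq2 on single cultures, limma-voom with lines as a random term, DESeq2 on line sums, 2 other scalings, 2 other filters, the line or culture number as a block, each line left out, and the heavy chains summed. Some results are not reported here.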

Additional observations from a re-analysis of the deposited data

How the results depend on the processing

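The directions of *H2-D1*, *B2m*, *Tap2*, *Tapbp*, *Psmb8*, *Psmb9* and *Psmb10* held under every alternative in which they were tested. *Psmb9* could not be fitted on single cultures or with at least 10 counts in every line, since it fell to the filter. The number of genes called moved most, from 274 to 6096 (edgeR) and 6409 (DESeq2) with 18 cultures as samples, 2173 with limma-voom, 2171 with DESeq2 on 6 lines and 423 with raw totals. Class I genes called went from 0 to 5, 6, 3 and 3 under the first 4 of these, of which 4, 4, 3 and 3 were lower in the *Nf1*/*Cdkn2a* dKO. Pathway genes called went from 0 to 39, 40, 10 and 11, to 1 with raw totals (*Irf1*) and to 2 with no filter. With raw totals 5 class I genes had lines that did not overlap, in place of 3 (32.4% of all genes, in place of 31.4%). The cause of these moves was not tested.

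Leaving out 1 line at a time gave 0 to 172 called genes (172, 27 and 107 without *Nf1*/*p53* lines 1 to 3, and 0, 2 and 23 without *Nf1*/*Cdkn2a* lines 1 to 3). Among them were 0 class I genes and 0 pathway genes. At an unadjusted p under 0.05 from edgeR there were 3 to 5 class I genes, beside 2668 to 3391 of the 15549 to 15872 genes tested. Lines did not overlap for 4 to 5 class I genes (3 in all 6 lines), where the share over all genes went from 31.4% to between 38.5 and 43.1%. The median over the class I genes ran from −1.05 to −0.09. *H2-K1* turned to −0.06 with raw totals, and ran from −0.26 to 0.98 with a line left out (−0.18 and −0.23 without *Nf1*/*p53* lines 1 and 2, −0.26 without *Nf1*/*Cdkn2a* line 2). *Tap1* ran from −0.75 to 0.57, and *Nlrc5* from −1.24 to 1.06, turning to −0.12 in limma-voom. The ratio of *B2m* to the heavy chains (log2 difference −0.15) ran from −0.84 to 0.22 with a line left out (0.17, 0.22 and 0.02 without *Nf1*/*p53* line 1 or 2 or *Nf1*/*Cdkn2a* line 2).

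The line numbers did not pair the samples (correlations of deviations −0.0988, −0.133 and −0.0848). With the line number as a replicate block edgeR called 0 genes (2740 at an unadjusted p under 0.05), and *Nlrc5* was −0.24. With the culture number as a replicate block in limma-voom (correlations −0.0845 to 0.133), 2012 genes, 3 class I genes, all 3 lower, and 10 pathway genes were called, and *Nlrc5* was −0.21.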
